A study of Mus musculus with 6 samples.

Results

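The genes described here encode the chaperones, disulfide isomerases, degradation factors and stress regulators of the endoplasmic reticulum (ER), in mouse eggs arrested at metaphase II. They were taken by name from a list of 35 symbols, and all 35 were found among the 24254 gene rows of the deposited table, with Ero1a under its older symbol Ero1l. They comprise 20 chaperones and folding enzymes, 7 genes of ER-associated degradation and 8 regulators or targets of the stress response. The 6 RNA-seq libraries fall into 2 groups of 3, eggs matured in culture (in vitro maturation, IVM) and eggs matured in the animal (IVO). Strain, age, hormone treatment, culture medium and the number of eggs per library are not stated in the labels used here. Nothing in the labels says whether the replicates are separate animals or cultures. The p-values therefore reflect the scatter among these 6 libraries alone, part of which may be technical. The design text names 2 sequencing providers without assigning libraries to them, so provider and group cannot be told apart.

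Proteins destined for secretion or for the cell surface fold in the ER, where HSP70 and HSP90 chaperones, lectins and disulfide isomerases act on them, and proteins that fail to fold are returned to the cytosol for degradation. When unfolded protein accumulates, the sensors IRE1 (Ern1), ATF6 and PERK (Eif2ak3) start the unfolded protein response, in which XBP1, cleaved ATF6 and ATF4 switch on genes for chaperones, degradation and amino acid supply. The egg is a secretory cell that makes the glycoproteins of the zona pellucida and stores the contents of its cortical granules.

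Several ER chaperone genes carry a promoter sequence through which ATF6 and XBP1 act, the ER stress element, which consists of CCAAT and CCACG separated by 9 bases. Promoters running from 250 bases before to 50 after the transcription start (RefSeq, GRCm38.p6) were matched to 30 of the 35 genes. The letters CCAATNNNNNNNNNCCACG, searched on both strands, occurred in 37 of 27025 genes with a promoter (0.137%) and in 8 of the 30 (26.7%). These 8 are 7 of 17 chaperones and 1 of 6 degradation genes, against 0 of 7 regulators. The element was first described on chaperone promoters that include Hspa5, Hsp90b1 and Calr, so its presence there is no independent finding. Their copies are shown because the genes that carry them went in both directions between the groups. Capitals mark CCAAT and CCACG, and positions count from the first transcribed base as 1, with negative numbers before it.
Hspa5, chr2:34772025-34772043, plus strand, -65 to -47: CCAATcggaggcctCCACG
Calr, chr8:84847075-84847093, plus strand, -162 to -144: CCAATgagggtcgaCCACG
Hsp90b1, chr10:86705638-86705656, minus strand, -212 to -194: CCAATcgcaaggagCCACG
Hsp90b1, chr10:86705533-86705551, plus strand, -107 to -89: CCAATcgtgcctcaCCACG
Pdia6, chr12:17266491-17266509, plus strand, -98 to -80: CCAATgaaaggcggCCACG
Syvn1, chr19:6046532-6046550, plus strand, -44 to -26: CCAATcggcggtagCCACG
Canx, chr11:50325800-50325818, minus strand, -145 to -127: CCAATcaccacgctCCACG
Dnajc3, chr14:118937827-118937845, plus strand, -105 to -87: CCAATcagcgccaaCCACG
Creld2, chr15:88819520-88819538, minus strand, -126 to -108: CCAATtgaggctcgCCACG

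The promoters of Hspa5 and Dnajc3 are given whole, because both hold an intact element on the strand of the gene while their transcripts differed between the groups in opposite directions. Capitals mark the ER stress element in both and, in Hspa5, a copy of TGACGTG, the core bound by ATF6 and XBP1, at -157 to -151.
Hspa5, chr2:34771840-34772139, plus strand: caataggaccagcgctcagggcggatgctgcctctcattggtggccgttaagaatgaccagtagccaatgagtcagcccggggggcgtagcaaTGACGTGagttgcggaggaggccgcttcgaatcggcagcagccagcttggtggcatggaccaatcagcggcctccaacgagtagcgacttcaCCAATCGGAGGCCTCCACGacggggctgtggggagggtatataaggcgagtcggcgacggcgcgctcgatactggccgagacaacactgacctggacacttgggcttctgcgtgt
Dnajc3, chr14:118937682-118937981, plus strand: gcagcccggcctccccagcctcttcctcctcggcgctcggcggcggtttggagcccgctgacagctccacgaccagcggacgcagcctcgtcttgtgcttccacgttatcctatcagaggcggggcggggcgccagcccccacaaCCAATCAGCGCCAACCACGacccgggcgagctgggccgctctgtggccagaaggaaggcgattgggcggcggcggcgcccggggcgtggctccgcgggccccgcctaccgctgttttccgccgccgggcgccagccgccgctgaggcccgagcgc
Besides Hspa5, TGACGTG was found among the 30 in Txndc5, and in 2.22% of all genes with a promoter. The second form of the element, ATTGGNCCACG, was found in Dnajb11 and Herpud1 and in 0.0444% of all genes. The amino acid response element TGATGNAA, which ATF4 binds, was found in Asns, Chac1, Trib3, Herpud1 and Txndc5, against 4.51% of all genes. Matches of these 4 motifs did not overlap each other. CCAAT alone was present in 41.1% of all genes and CCACG alone in 35.5%, and the ER stress element contains both by construction. A match describes letters and not binding.

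Per the file headers the values are FPKM, fragments scaled by transcript length and library size, so levels can be set side by side between genes. In bulk RNA, less transcript per cell and fewer cells that carry it cannot be told apart. The groups were compared with limma for genes whose mean FPKM reached 1, on log2(FPKM + 1), a scale that understates the change of low genes, and called at a Benjamini-Hochberg adjusted p under 0.05 over all 7746 genes tested. Of the 35 genes 28 reached that level, 10 of which were higher in IVM, 7 lower and 11 not called, while 41.0% of all tested genes were called, 20.6% higher and 20.4% lower. Of the 28, every IVM library lay above every IVO library for 11 and below for 7, against 25.8% and 27.7% of all tested genes. By q-value in the authors' deposited table, of the 28 genes 12 were called higher and 5 lower, against 44.7% of all tested genes called in either direction. The median log2 difference of the 28 was 0.12, beside -0.019 over all tested genes, and the median size of the difference without its sign was 0.42 beside 0.40. At least a 2-fold difference in mean FPKM was seen for 6 of the called genes, Hspa5, Calr, Pdia3, Hsp90b1, Derl2 and Erp44, all higher in IVM. The same 6 of the 28 were called with a difference of at least 1 on the log2(FPKM + 1) scale. So were 1195 of all 7746 tested genes, in either direction.

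All 10 oocyte markers that reached a mean FPKM of at least 1, of 11 listed, were higher in IVM. Their ratios of mean FPKM ran from 1.23-fold for Gdf9 to 38.3-fold for Zp2, with Zp3 at 12.7-fold, Ooep at 9.85-fold and Nlrp5 at 9.66-fold. Zp2, with an IVO mean of 0.398 FPKM, reached a mean of 1 only through its IVM values, so its call adds nothing to them. The oocyte sums were 12792 to 13272 FPKM in IVM and 8027 to 9874 in IVO, without overlap. Of 17 cumulus and granulosa markers 9 reached it, 1 higher and 2 lower in IVM. The higher one was Inha (mean FPKM 16.9 in IVM against 3.90 in IVO). The lower ones, Tnfaip6 (0.242 against 2.76) and Inhba (0.248 against 2.18), reached it only through their IVO values, so their calls add nothing to them. Among those not tested, Amh was at 1.75 and 0.189 and Vcan at 0.0910 and 1.11. The summed FPKM of all 17 was 26.1 to 82.2 in IVM and 27.4 to 71.6 in IVO, with none at 0 in every library. Single markers thus went both ways, which the sums do not show. Of 8 oviduct markers 2 reached a mean FPKM of 1 and were called in opposite directions. Cldn4 was higher in IVM (74.3 ± 2.27 against 28.8 ± 8.03 FPKM, SD, n = 3 each, limma adjusted p = 0.000511) and Cdh1 lower (159 ± 14.0 against 201 ± 18.3, limma adjusted p = 0.0216). The oviduct sums, 221 to 247 in IVM and 208 to 257 in IVO, are made up almost wholly of Cldn4 and Cdh1. The rest did not reach it. Over all libraries Krt8 averaged 0.866 FPKM, Epcam 0.763, Ovgp1 0.330, Krt18 0.284 and Foxj1 0.273, and Pax8 was at 0 in every library. Of 6 blood and immune markers 0 reached a mean FPKM of 1, with sums of 1.42 to 3.52 in IVM and 1.08 to 3.51 in IVO. The groups overlapped in the last 3 sums, and the part of these cells in the results below was not tested. Judged from the steps in which low FPKM values move, the libraries had 0.779 to 0.914 of the depth of IVM replicate 1, the deepest.

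**Figure D1:**
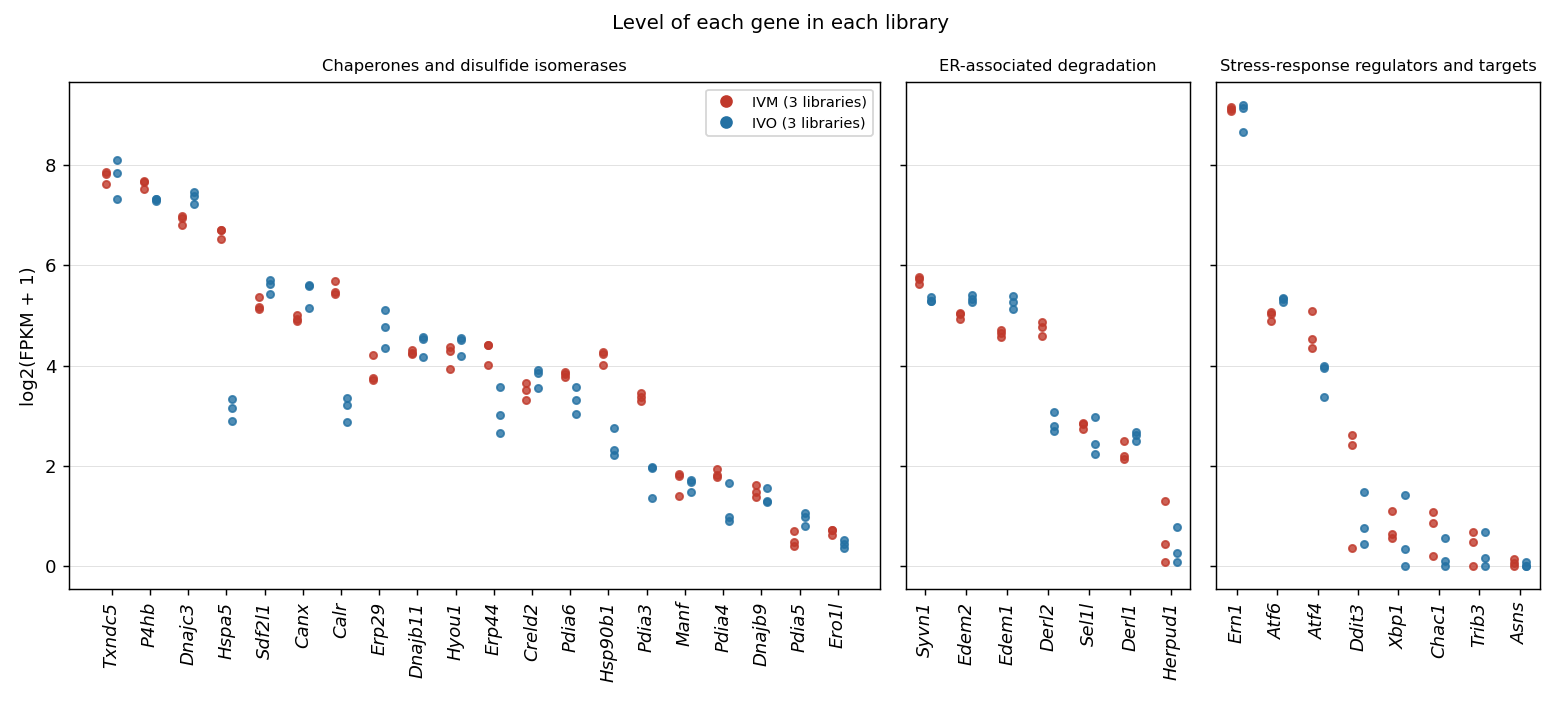
Level of each of the 35 genes in each library, as log2(FPKM + 1), in panels for chaperones, degradation and regulators. Points are the 3 IVM and 3 IVO libraries, and Hspa5, Calr and Derl2 show 2 separate clouds of points, while Ern1 is high in all 6 libraries.

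Hspa5 encodes BiP, the HSP70 of the ER lumen, which holds unfolded chains and keeps the stress sensors inactive. Its FPKM in IVM replicates 1 to 3 was 103, 91.1 and 103, and in IVO replicates 1 to 3 it was 7.93, 9.01 and 6.44. The lowest IVM library was far above the highest IVO library. The means of 99.2 ± 7.01 (SD, n = 3) and 7.79 ± 1.29 (SD, n = 3) differ 12.7-fold, or by 3.52 (SE 0.133, 95% interval 3.22 to 3.82, limma adjusted p = 2.68e-06) on the log2(FPKM + 1) scale. In order of mean FPKM among all genes, Hspa5 stood at rank 633 in IVM and 3617 in IVO.

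Hsp90b1 encodes GRP94, the HSP90 of the ER. It was at 18.3, 15.1 and 17.7 FPKM in IVM and 3.96, 5.78 and 3.63 in IVO, with no overlap, and the means of 17.0 ± 1.70 and 4.46 ± 1.16 (SD, n = 3 each) gave a log2 difference of 1.74 (SE 0.180, limma adjusted p = 0.000150). Dnajc3 encodes P58IPK, a J-domain partner of BiP, and went the other way: 122, 125 and 111 FPKM in IVM against 167, 176 and 149 in IVO. Every IVM library lay below every IVO library, and the log2 difference was -0.45 (SE 0.0924, limma adjusted p = 0.00458). Sdf2l1, which binds J-domain cochaperones, was at 34.97, 40.2 and 34.1 FPKM in IVM and 48.4, 51.4 and 41.8 in IVO. Its groups did not overlap and it was lower by the limma fit (log2 difference -0.36, adjusted p = 0.0329), a call lost without IVM replicate 1 (0.109) or 3 (0.106), and without IVO replicate 1 (0.0722) or 2 (0.102).

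The other partners of BiP were not called. Hyou1, its nucleotide exchange factor, had a log2 difference of -0.22 (95% interval -0.58 to 0.13, limma adjusted p = 0.293). Dnajb11, another J-domain partner, had -0.15 (-0.46 to 0.16) and Dnajb9 had 0.12 (-0.31 to 0.54). Manf, a secreted stress-induced factor that also binds BiP, had 0.06 (-0.39 to 0.51). All 4 had overlapping groups. BiP transcript relative to those of its partners therefore differed between the groups: the ratio of Hspa5 to Dnajc3 FPKM was 0.835 ± 0.104 in IVM against 0.0474 ± 0.00391 in IVO (SD, n = 3 each), and that of Hspa5 to Hyou1 was 5.80 ± 1.31 and 0.385 ± 0.0880.

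Both lectin chaperones were called, in opposite directions. Calreticulin (Calr), the soluble lectin of the ER lumen, was at 42.3, 50.7 and 43.2 FPKM in IVM and 6.33, 9.27 and 8.27 in IVO. The lowest IVM library exceeded the highest IVO library, and the means of 45.4 ± 4.62 and 7.96 ± 1.49 (SD, n = 3 each) differ 5.71-fold, with a log2 difference of 2.38 (SE 0.152, limma adjusted p = 1.67e-05). Calnexin (Canx), the lectin anchored in the ER membrane, was at 31.1, 29.6 and 28.8 FPKM in IVM and 34.4, 48.0 and 47.1 in IVO. Its groups did not overlap either, and it was lower in IVM by 0.50 on the log2 scale (limma adjusted p = 0.0175), a call lost without IVM replicate 2 (0.0556) or 3 (0.0627), and without IVO replicate 2 (0.0626). The ratio of Calr to Canx FPKM was 1.52 ± 0.178 in IVM against 0.184 ± 0.00869 in IVO (SD, n = 3 each).

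Among 10 genes of disulfide formation 8 were tested, of which 4 were higher, 1 lower and 3 not called. Over all tested genes 20.6% were higher and 20.4% lower. Pdia3 encodes ERp57, the isomerase that works with calreticulin and calnexin. Its FPKM was 9.35, 8.84 and 9.98 in IVM and 1.55, 2.93 and 2.86 in IVO, a separation of the groups with a log2 difference of 1.62 (SE 0.204, limma adjusted p = 0.000365). Erp44, which retains oxidases and immature secreted proteins in the early secretory pathway, was at 20.3, 15.1 and 20.3 FPKM in IVM and 10.8, 5.33 and 7.09 in IVO. The groups were apart, with means of 18.6 ± 3.01 and 7.74 ± 2.80 (SD, n = 3 each) and a log2 difference of 1.20 (SE 0.231, limma adjusted p = 0.00339). Erp29, a thioredoxin-fold protein without an active-site cysteine pair, was the lower one, at 12.008, 17.4 and 12.5 FPKM in IVM and 19.4, 26.2 and 33.3 in IVO. All IVM libraries lay below all IVO libraries (log2 difference -0.85, SE 0.209, limma adjusted p = 0.0105).

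The abundant isomerase P4hb (PDI) differed less, at 205, 200.3 and 183 FPKM in IVM and 155, 159 and 159 in IVO. The groups were separate, with a log2 difference of 0.31 (limma adjusted p = 0.00999), a call lost without IVM replicate 1 (0.0534) or 2 (0.0532). Pdia6, which also acts on the IRE1 sensor, was at 13.6, 13.3 and 12.7 FPKM in IVM and 8.92, 11.0 and 7.19 in IVO. Its groups did not overlap, but the call (log2 difference 0.52, limma adjusted p = 0.0302) was lost without any 1 of 5 libraries, at adjusted p of 0.0543 to 0.0950. Pdia4 was at 2.52, 2.81 and 2.42 FPKM in IVM and 0.854, 2.14 and 0.974 in IVO and just missed the threshold (log2 difference 0.66, limma adjusted p = 0.0510), which it passed without IVO replicate 2 (0.0116). The most abundant gene of the role, Txndc5, was at 226, 232 and 196 FPKM in IVM and 272, 227 and 159.6 in IVO, a range in IVO that spans the IVM values (log2 difference 0.02, 95% interval -0.37 to 0.41, limma adjusted p = 0.930). Creld2, a stress-induced isomerase, had a log2 difference of -0.28 (-0.63 to 0.08). Ero1l, the oxidase that recharges PDI, and Pdia5 stayed below a mean FPKM of 1 and were not tested, with 0.539 to 0.656 FPKM in IVM and 0.283 to 0.435 in IVO for Ero1l, and 0.314 to 0.634 and 0.740 to 1.07 for Pdia5.

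**Figure D2:**
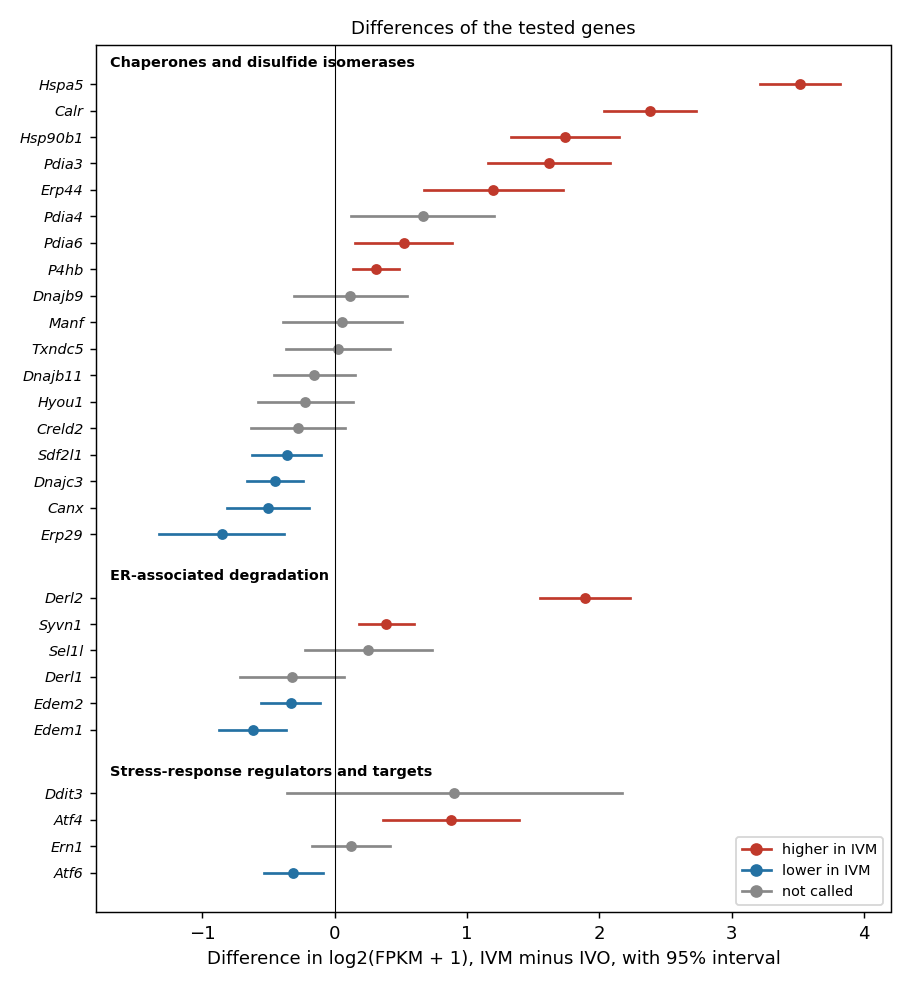
Difference in log2(FPKM + 1), IVM minus IVO, of each tested gene with its 95% interval from the limma fit, ordered within chaperones, degradation and regulators. Hspa5 at 3.52, Calr at 2.38 and Derl2 at 1.89 lie farthest to the right, and Erp29 at -0.85 lies farthest to the left.

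Summed over the 20 chaperones and folding enzymes, FPKM came to 871 ± 40.0 in the IVM libraries and 757 ± 63.7 in the IVO libraries (SD, n = 3 each), with ranges that did not overlap (825 to 895 and 683 to 795). The make-up of that sum differed more than its size. Hspa5 was 11.4 ± 1.18% of it in IVM and 1.03 ± 0.1004% in IVO (SD, n = 3 each). Hspa5, Calr, Hsp90b1, Pdia3 and Erp44 made up 21.8 ± 1.69% and 4.02 ± 0.155%. They were grouped after their values were seen, so their higher share in IVM follows from that choice. P4hb, Txndc5 and Dnajc3, the most abundant, made up 61.3 ± 1.57% and 71.3 ± 3.13%.

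**Figure D3:**
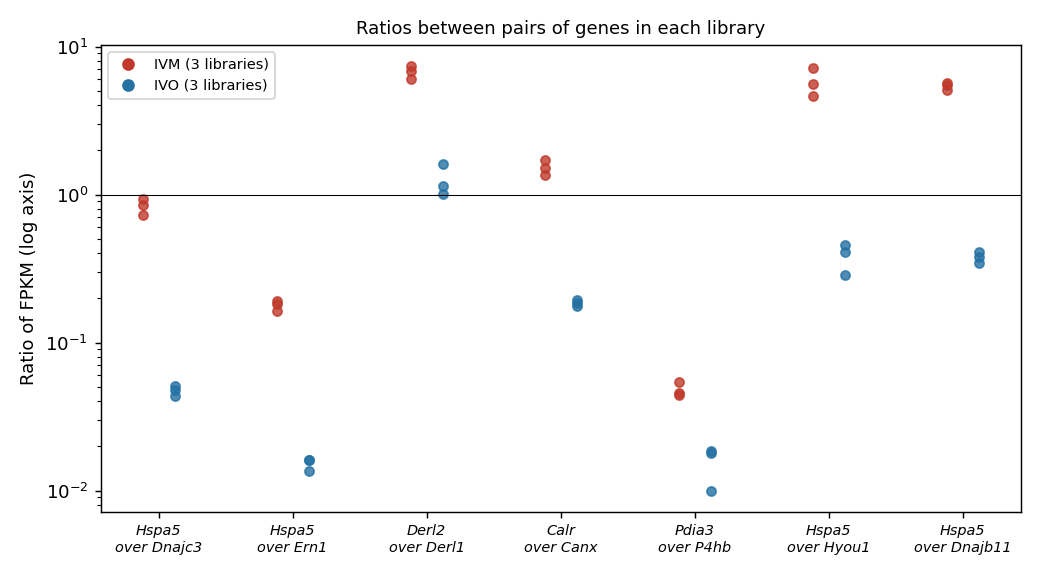
Ratio of FPKM between pairs of genes in each library, on a log axis, with points for the 3 IVM and 3 IVO libraries. The ratio of Hspa5 to Dnajc3 averages 0.835 in IVM and 0.0474 in IVO, and that of Calr to Canx 1.52 and 0.184.

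ER-associated degradation, which extracts misfolded proteins and marks them with ubiquitin, had 2 genes higher, 2 lower and 2 not called of 6 tested, with a median log2 difference of -0.034. The shares over all tested genes were 20.6% higher and 20.4% lower. Derl2, a membrane protein of the extraction channel, was at 28.1, 26.3 and 23.2 FPKM in IVM and 7.46, 5.43 and 5.90 in IVO. The groups were far apart, 4.13-fold in mean FPKM, with a log2 difference of 1.89 (SE 0.15003, limma adjusted p = 4.54e-05). Its relative Derl1 was not called (log2 difference -0.32, 95% interval -0.72 to 0.07), and the ratio of Derl2 to Derl1 FPKM was 6.75 ± 0.703 in IVM against 1.25 ± 0.318 in IVO (SD, n = 3 each). Syvn1 encodes HRD1, the ubiquitin ligase of the pathway, and was at 52.0, 53.1 and 48.6 FPKM in IVM and 38.0, 40.3 and 38.2 in IVO. Its groups did not overlap (log2 difference 0.39, limma adjusted p = 0.00882), and the call was lost without IVM replicate 2 (0.0515). The cofactor that holds HRD1, Sel1l, was not called (0.25, -0.22 to 0.73).

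Edem1 and Edem2, lectin-like proteins that send misfolded glycoproteins to degradation, were both lower in IVM. Edem1 was at 25.2, 24.1 and 22.6 FPKM in IVM and 37.7, 40.9 and 33.7 in IVO, with every IVM library lower (log2 difference -0.62, SE 0.112, limma adjusted p = 0.00239). Edem2 was at 29.6, 31.8 and 32.0 FPKM in IVM and 37.5, 39.2 and 41.5 in IVO, also without overlap (-0.33, limma adjusted p = 0.0242), a call lost without IVM replicate 1 (0.1004) or 2 (0.0730), and without IVO replicate 2 (0.0520). Herpud1, a stress-induced scaffold of the ligase, was below the filter at 0.354, 1.45 and 0.0637 FPKM in IVM and 0.194, 0.717 and 0.0634 in IVO, with overlapping groups.

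Of the 8 stress-response regulators and targets 4 were below a mean FPKM of 1, as were 2 of the 20 chaperones. Of the 4 regulators tested 1 was higher, 1 lower and 2 not called, where 20.6% of all tested genes were higher and 20.4% lower. Differences ran from -0.31 to 0.90 on the log2 scale, beside -0.85 to 3.52 for the 18 tested chaperones. A range widens with the number of genes, and the medians were 0.50 for regulators and 0.087 for chaperones. The regulator median rests on 4 genes, of which Ddit3 reached the filter only through its IVM values. At a mean FPKM of at least 5 the medians were 0.13 for regulators and 0.023 for chaperones. No test of the difference between these classes was made. Ern1, which encodes the sensor IRE1, held 90.1 ± 1.04% of the FPKM summed over these genes in IVM, against 90.4 ± 1.98% in IVO (SD, n = 3 each). It was at 569, 556 and 542 FPKM in IVM and 583, 564 and 402 in IVO, ranks 80 and 95 among all genes by mean FPKM. IVO replicate 3 was the low library, the groups overlapped, and the log2 difference was 0.13 (95% interval -0.17 to 0.42, limma adjusted p = 0.478). Atf6, the sensor released from the ER by cleavage, was at 32.6, 31.7 and 28.7 FPKM in IVM and 39.5, 37.5 and 38.9 in IVO. It was lower in all IVM libraries (log2 difference -0.31, limma adjusted p = 0.0330), a call lost when any library but IVO replicate 3 was left out, at adjusted p of 0.0538 to 0.101.

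Xbp1, the transcription factor whose RNA IRE1 splices, was near the limit of detection at 1.13, 0.553 and 0.474 FPKM in IVM and a listed 0, 1.68 and 0.262 in IVO. The values correspond to an estimated 26, 12 and 9 fragments and 0, 33 and 5 fragments, and spliced and unspliced forms are not separated in gene-level values.

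Atf4, the factor translated when eIF2α is phosphorylated, was at 19.5, 22.0 and 32.9 FPKM in IVM and 14.9, 9.41 and 14.4 in IVO. Every IVM library was above every IVO library, with IVM replicate 3 the highest, and the means of 24.8 ± 7.12 and 12.9 ± 3.05 (SD, n = 3 each) gave a log2 difference of 0.88 (limma adjusted p = 0.0132). Without IVM replicate 3 it was 0.67 (adjusted p = 0.0501). Ddit3 encodes CHOP, a target of ATF4, and was at 0.276, 5.12 and 4.35 FPKM in IVM and 0.352, 1.79 and 0.690 in IVO. IVM replicate 1 lay below all IVO libraries while the other IVM libraries lay above them. The log2 difference of 0.90 (95% interval -0.36 to 2.17, limma adjusted p = 0.228) became 1.63 (adjusted p = 0.00785) without IVM replicate 1. That library, at an estimated 3 fragments, was the discordant one, so the larger difference follows from leaving it out. With an IVO mean of 0.944 FPKM, Ddit3 reached the filter only through its IVM values, and these p-values add nothing to them. The q-value of Ddit3 in the authors' deposited table was 0.0456.

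The other targets of ATF4 listed with the regulators, Trib3, Chac1 and Asns, were all below the filter. Trib3, a pseudokinase that restrains ATF4 signalling, was at 0.595, 0.403 and 0 FPKM in IVM and 0.117, 0.594 and 0 in IVO. Chac1, which degrades glutathione, was at 1.12, 0.823 and 0.156 in IVM and 0.476, 0.0732 and 0 in IVO. Asns, asparagine synthetase, was at 0.0488, 0.108 and 0 in IVM and 0, 0.0577 and 0 in IVO. These levels correspond to an estimated 0 to 20 fragments per library, and differences were not tested.

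**Figure D4:**
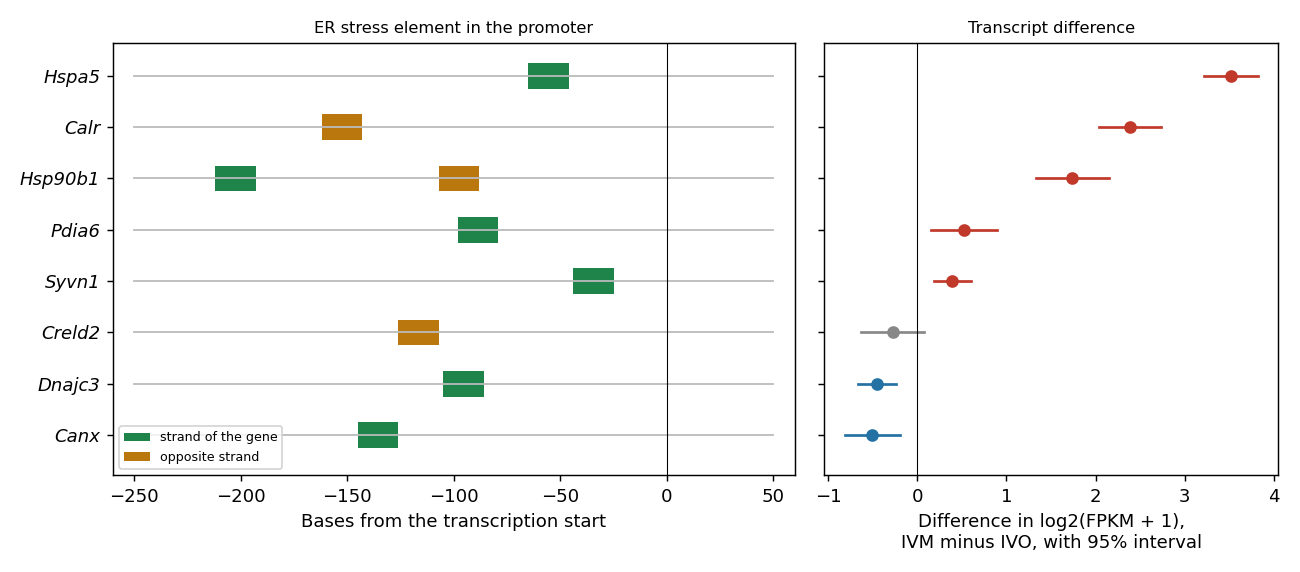
Left, position of each ER stress element relative to the transcription start, in bases, in the 8 genes that carry one. Right, their difference in log2(FPKM + 1), IVM minus IVO, with the 95% interval, which runs from 3.52 for Hspa5 to -0.50 for Canx.

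Read against the elements printed above, 5 of the 8 genes that carry one were higher in IVM (Hspa5, Calr, Hsp90b1, Pdia6 and Syvn1), 2 were lower (Canx and Dnajc3) and Creld2 was not called, where 20.6% of all tested genes were higher and 20.4% lower. Hsp90b1 is the gene with 2 copies. Pdia3, Erp44 and Derl2, higher by 1.20 to 1.89 on the log2 scale, had no match in this window.

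The reads of some of these genes may be shared, since strandedness is not stated. Ddit3 has the same deposited locus as Mars, Derl2 as Mis12, Pdia6 as Atp6v1c2, Syvn1 as Mrpl49 and Mir6988, Dnajb11 as Ahsg and Gm30505, and Pdia4 as Mir704. A further 10 are overlapped by another annotated gene in GRCm38 without sharing its deposited locus: Hsp90b1, Pdia3, Erp29, Erp44, Manf, Txndc5, Dnajb9, Pdia5, Herpud1 and Atf6. Values of all these genes are uncertain to that extent, including those of Hsp90b1, Pdia3, Erp29, Erp44 and Derl2, whose calls held under every alternative.

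Further genes of the pathway came from a list of 134, of which 133 were found and 90 tested. Of these 26 were higher in IVM, 17 lower and 47 not called, with a median log2 difference of 0.17. That is 47.8% called, near the 41.0% of all tested genes, of which 20.6% were higher and 20.4% lower, and the counts by role that follow are to be read against these shares. Among other lumenal folding factors 8 of 18 tested were higher and 1 lower. On the log2(FPKM + 1) scale, by which the genes named here were ranked, the largest rises were those of Vkorc1, the vitamin K epoxide reductase, at 74.2 ± 7.01 FPKM in IVM against 9.26 ± 0.807 in IVO (log2 difference 2.87, limma adjusted p = 2.88e-06), and Ero1lb, the second oxidase of PDI, at 27.3 ± 2.33 and 7.47 ± 0.806 (SD, n = 3 each, log2 difference 1.74, limma adjusted p = 4.08e-05). By the ratio of mean FPKM, Txndc12 (7.83-fold), Cnpy3 (5.28-fold), Ganab (5.27-fold) and Qsox1 (3.82-fold), all called higher and at lower levels, exceeded Ero1lb (3.66-fold). Txndc12, Cnpy3 and Ganab had IVO means of 0.518, 0.348 and 0.812 FPKM. They reached the filter only through their IVM values, so their calls add nothing to them. Their q-values in the authors' deposited table were 0.104, 0.161 and 0.000248. Kdelr2, a receptor that returns KDEL-bearing chaperones to the ER, was the lower one, at 72.9 ± 2.01 and 128 ± 8.14 FPKM (-0.80, limma adjusted p = 0.000156).

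In translocation and signal peptide cleavage 7 of 19 tested genes were higher and 4 lower. Ssr2, a subunit of the translocon-associated complex, was higher, at 7.14 ± 1.09 and 1.55 ± 0.959 FPKM (SD, n = 3 each, log2 difference 1.75, limma adjusted p = 0.00195). Ssr4, another subunit, was at 3.82, 1.59 and 3.04 FPKM in IVM and 0.181, a listed 0 and a listed 0 in IVO. It reached the filter only through its IVM values, so its call (limma adjusted p = 0.000761) adds nothing to them, and its q-value in the authors' deposited table was 0.315. Srp14 of the signal recognition particle and the channel gene Sec61a1 were lower, at log2 differences of -1.06 (limma adjusted p = 0.000352) and -0.94 (adjusted p = 0.000887). In N-linked glycosylation 3 of 15 were higher and 2 lower. Ddost and Dad1 of the oligosaccharyltransferase were higher by 1.53 and 1.38 on the log2 scale, while its catalytic subunits Stt3b (-0.69, limma adjusted p = 0.00113) and Stt3a (-0.42, adjusted p = 0.0286) were lower, the last call being lost without IVM replicate 2 (0.0890) or 3 (0.0907), and without IVO replicate 2 (0.0635).

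In the rest of ER-associated degradation 5 of 20 tested were higher and 5 lower. Derl3, another derlin, averaged 10.4 ± 1.64 FPKM in IVM against 1.32 ± 0.0809 in IVO (SD, n = 3 each, log2 difference 2.29, limma adjusted p = 3.93e-05), and Nploc4, a cofactor of the extracting ATPase, rose by 1.74. Ngly1, which removes glycans from extracted proteins, and the ubiquitin-conjugating enzyme Ube2j1 were lower, with log2 differences of -0.92 and -0.77. Among other stress sensors and transcription factors 3 of 18 were higher and 5 lower. Tmbim6, a membrane protein that restrains IRE1, was at 70.8 ± 4.82 and 27.9 ± 3.14 FPKM (1.32, limma adjusted p = 5.93e-05).

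The 2 phosphatase subunits that reverse the phosphorylation of eIF2α went in opposite directions. Ppp1r15b, the constitutive one, was at 88.7 ± 5.19 FPKM in IVM against 33.6 ± 9.30 in IVO (SD, n = 3 each, log2 difference 1.41, limma adjusted p = 0.000308). Ppp1r15a, the stress-induced GADD34, was at 127 ± 3.83 and 197 ± 11.7 (-0.63, adjusted p = 0.000345). The kinase PERK (Eif2ak3) was at 7.11, 8.43 and 8.44 FPKM in IVM and 15.7, 10.3 and 9.31 in IVO. Its groups did not overlap, IVO replicate 1 was the highest library, and the log2 difference of -0.48 was not called (limma adjusted p = 0.0832). It passed without IVO replicate 3 (0.0376), with upper quartile scaling (0.0382) and with array weights (0.0454), and its q-value in the authors' deposited table was 0.00331. Atf6b was not called (0.05, adjusted p = 0.805), and Atf3, a target of ATF4, was below the filter in both groups. Nfya and Nfyc, subunits of the factor that binds CCAAT, were lower in IVM, with log2 differences of -0.83 (limma adjusted p = 0.000162) and -1.01 (adjusted p = 0.000343), and the remaining subunit, Nfyb, was below the filter.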

How the data were processed

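RNA-seq of 6 libraries was analysed, 3 of IVM and 3 of IVO eggs, with groups taken from the labels. The authors deposited, per the file headers, an FPKM value for each gene in each library, and a p-value and q-value for IVM against IVO. Their log2 ratio column was not used, because part of it holds error text. Aligner, counting tool, annotation and strandedness: not given in the sources used here. The submitters' processing notes name mm9 as build, whereas 22966 of 23104 symbols in the GENCODE annotation (99.4%) overlap the gene of that name in GRCm38. Promoter coordinates are RefSeq's, on GRCm38.p6.

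Of 24254 gene rows, 7775 were at 0 in every library and 27 had names turned into dates. An exact 0 can be a failed estimate and is only a listed 0. The 7746 genes whose mean FPKM reached 1 entered a two-sided limma test (version 3.58.1, R 4.3.3) of log2(FPKM + 1) with the variance trended on intensity, and p-values were adjusted by Benjamini-Hochberg, with calls at 0.05. The procedure was tested on simulated data. FPKM are not counts, so no count test was run. Fragment numbers are estimates from the steps between FPKM values under 0.3 and the longest annotated transcript, and give no counting interval.

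The 35 genes and all lists were chosen with earlier results of these data known. All 35 are named. Of the other pathway genes, the named ones are up to 2 called with the largest rise and up to 2 with the largest fall in each role, with Eif2ak3, Atf6b, Atf3, Ppp1r15a and Ppp1r15b. Nfyb, Txndc12, Cnpy3, Ganab, Qsox1 and Alg12 were named after their values were seen. Alternatives covered the pseudocount, filter, scaling, variance model, array weights, replicate block, transcript length, each library left out and the authors' q-values. Protein sequences were not used here.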

Additional observations from a re-analysis of the deposited data

How the results depend on the processing

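Of the 17 called genes among the 28 tested, 9 kept call and direction under every one of up to 18 alternatives: Hspa5, Calr, Hsp90b1, Pdia3, Erp44 and Derl2 (higher in IVM) and Dnajc3, Edem1 and Erp29 (lower). Besides the losses without a library given above, calls were lost by Sdf2l1, Edem2 and Atf6 after rescaling to the same sum, under quantile normalization and without the intensity trend, by Canx and Stt3a after rescaling, by Atf6 and Stt3a with the replicate block, by P4hb, Syvn1 and Pdia6 with upper quartile scaling, by P4hb without the trend, by Pdia6 and Sdf2l1 with no filter, by Pdia6 and Atf6 with the length trend removed, and by Sdf2l1, Edem2 and Ssr4 by the authors' q-values. Pdia4 passed after rescaling, without the trend, with the block and by those q-values. The median of all tested genes was -0.019, and 0.10 after rescaling to the same sum, -0.13 with upper quartile scaling, -0.077 with quantile normalization and -0.12 at a mean FPKM of at least 5. The lower genes of the 35 numbered 3 after rescaling to the same sum and 4 under quantile normalization or without the intensity trend. Lower chaperones numbered 2 after rescaling. Higher degradation genes numbered 1 with upper quartile scaling, and lower ones 1 after rescaling, under quantile normalization, without the trend and by the authors' q-values. Higher regulators numbered 2 by the authors' q-values. Lower regulators numbered 0 by limma after rescaling, under quantile normalization, without the trend, with a replicate block and with the length trend removed; at an unadjusted p under 0.05, Atf6 passed in the last 3 of these, 0 passed in the first 2, and the authors' q-values called 1. At a mean FPKM of at least 5 the other pathway genes called higher numbered 16 and all genes called higher 835, where fewer genes were tested. The median log2 difference of degradation genes was 0.23 with no filter and 0.25 at a mean of at least 5, beside -0.034 in the main fit. That of regulators was 0.15 and 0.13, beside 0.50. Apart from the filter, the cause was not tested.

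Leaving out 1 library gave 7 to 11 higher and 3 to 7 lower of the 35, 5 to 8 and 2 to 4 of the chaperones, 1 to 2 and 1 to 2 of degradation, 0 to 2 and 0 to 1 of regulators, 21 to 28 and 13 to 19 of the other pathway genes, and 1205 to 1634 and 1177 to 1617 of all genes. Median log2 differences ranged from 0.034 to 0.15 for chaperones, -0.13 to 0.042 for degradation and 0.31 to 0.57 for regulators. Genes not called that changed sign were Dnajb9 (-0.17, quantile), Manf (-0.034, upper quartile; -0.22, quantile; -0.016, length; -0.019 to 0.19 without 1 library), Txndc5 (-0.11, upper quartile; -0.0033, array weights; -0.19 to 0.19 without 1 library), Ern1 (-0.0046, upper quartile; -0.046 to 0.22 without 1 library, the lowest without IVO replicate 3) and Atf6b (-0.067, upper quartile; -0.061 to 0.16 without 1 library).

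In their deviations from the group means, same-numbered libraries correlated at 0.0599 to 0.0900, and each correlated best with its own number. With 3 libraries per group, correlations this small cannot settle whether replicate numbers pair the libraries, and the main fit left them unpaired. With the replicate number as a block, 11 of the 35 were higher and 6 lower, with 8 and 4 chaperones, 2 and 2 degradation genes, 1 and 0 regulators, 24 and 14 other pathway genes, and 1626 and 1558 of all genes. Genes under about 1 FPKM rest on few fragments, which limits Xbp1, Trib3, Chac1, Asns and Herpud1.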

Other observations

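The ER stress element was searched in all promoters, and the genes outside the 35 that carry it were looked at after the values were seen. There were 29 such genes, of which 22 were in the table and 9 were tested: 3 were higher in IVM, 1 lower and 5 not called. Over all tested genes 20.6% were higher and 20.4% lower. The promoters of Alg12 and 1700122E12Rik hold the same copies of the element as those of Creld2 and Calr, so these are not separate elements. Derl3, a derlin, averaged 10.4 FPKM in IVM against 1.32 in IVO. Ero1lb, an oxidase of the ER, was at 27.3 and 7.47. Calr4, a relative of calreticulin, was at 6.34 ± 0.727 and 1.52 ± 1.14 FPKM (SD, n = 3 each), with no overlap and a log2 difference of 1.63 (limma adjusted p = 0.00237). Xlr3a, at 11.0 and 15.0 FPKM, was the lower one (-0.41, limma adjusted p = 0.0426), and its near copies Xlr3b and Xlr3c, with which it may share reads, were not called, nor were Hnrnpa3, Pan2 and Zfp57.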
